A study of Mus musculus with 5 samples.

Results

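The 10 genes described here encode secreted or membrane-bound inflammatory signals: the chemokines Cxcl1, Cxcl2, Cxcl10, Cxcl16, Ccl2, Ccl7, Ccl3 and Ccl4, and the cytokines Il1b and Tnf. They were chosen by name, and all 10 were found by gene symbol among the 32285 genes of the count matrices. The matrices come from single-cell RNA sequencing of handpicked, trypsin-dissociated pancreatic islets, 1 library per mouse. 2 mice received a diet with 20% HC (hydrolyzed casein; HC 1 labelled as aged 7 weeks, HC 2 as 9 weeks) and 3 mice received chow (chow 1 aged 8 weeks, chow 2 and chow 3 aged 10 weeks). All 5 mice were of the strain NOD.Cg-Prkdcscid/J (NOD.SCID): they carry the scid mutation of Prkdc on the diabetes-prone NOD background which leaves both diet groups without mature lymphocytes of the T and B lineages. The library of HC 2 is titled as coming from a chow-fed animal, whereas its diet entry reads 20% HC. It was kept in the HC group, because the study's design counts 2 HC mice, and diet differences discussed at length below are also given without it or with the title's diet. The age of HC 1 lies outside the range of 8 to 10 weeks that the design states, so values from a model with age as a term rest on a doubtful entry. Library names begin with SKY (HC 2, chow 2 and chow 3) or FUN (HC 1 and chow 1). The labels do not say what these prefixes mark, the FUN mice were the younger ones, and prefix and age cannot be told apart.

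Chemokines are small proteins that draw leukocytes along a concentration gradient through G protein-coupled receptors. CXC chemokines such as Cxcl1 and Cxcl2 attract neutrophils through Cxcr2, and CC chemokines such as Ccl2 and Ccl7 attract monocytes through Ccr2. IL-1β and TNF are early cytokines of myeloid cells; they activate NF-κB, which in turn induces many chemokine genes. In the islet, resident macrophages are the main myeloid cells, and both IL-1β and TNF can impair or kill beta cells.

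Promoter sequences are printed for the genes whose levels differed most clearly between the library sets below, Cxcl2 and Il1b. They are also printed for Cxcl1, which neighbours Cxcl2 on chromosome 5, and for Cxcl10, which lies farther away on that chromosome. Each line gives the 250 bases before the RefSeq start of the gene, 5′ to 3′ on the gene's strand, in build GRCm38.p6. Capitals mark matches to the NF-κB consensus motif on either strand.
Cxcl2: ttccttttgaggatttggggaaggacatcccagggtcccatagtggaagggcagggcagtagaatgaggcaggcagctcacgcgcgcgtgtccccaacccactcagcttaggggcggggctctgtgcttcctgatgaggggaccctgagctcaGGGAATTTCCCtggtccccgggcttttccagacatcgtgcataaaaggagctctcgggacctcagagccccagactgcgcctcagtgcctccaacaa
Cxcl1: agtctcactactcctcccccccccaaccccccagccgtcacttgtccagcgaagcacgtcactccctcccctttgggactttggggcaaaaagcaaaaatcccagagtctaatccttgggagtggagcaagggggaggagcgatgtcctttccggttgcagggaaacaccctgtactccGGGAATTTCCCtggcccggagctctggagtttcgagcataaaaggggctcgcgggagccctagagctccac
Cxcl10: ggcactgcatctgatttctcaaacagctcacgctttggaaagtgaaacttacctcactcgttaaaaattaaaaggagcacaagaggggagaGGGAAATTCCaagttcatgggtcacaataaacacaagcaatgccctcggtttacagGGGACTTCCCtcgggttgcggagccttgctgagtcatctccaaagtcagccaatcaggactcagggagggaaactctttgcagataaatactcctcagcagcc
Il1b: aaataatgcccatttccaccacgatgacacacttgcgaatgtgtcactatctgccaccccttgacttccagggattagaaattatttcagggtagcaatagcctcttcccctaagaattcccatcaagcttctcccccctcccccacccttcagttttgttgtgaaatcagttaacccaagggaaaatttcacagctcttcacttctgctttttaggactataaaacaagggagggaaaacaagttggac
The windows are chr5:90903649-90903898 (+ strand) for Cxcl2, chr5:90890995-90891244 (+ strand) for Cxcl1, chr5:92348890-92349139 (- strand) for Cxcl10 and chr2:129371140-129371389 (- strand) for Il1b. RefSeq promoters were matched for 6 of the 10 genes, these 4 and those of Ccl3 and Tnf; Cxcl16, Ccl2, Ccl4 and Ccl7 are named only. Cxcl2 and Cxcl1 held the same string, starting 97 and 71 bases before the start of the gene, in which a match on each strand overlaps the other. Cxcl10 held 2 separate matches. There was no match in the windows of Il1b, Ccl3 and Tnf. Of all 32851 mouse promoter windows of this length, 3.90% held at least 1 match. A match is a string of letters and no evidence of binding.

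All 10 genes are protein coding. On GRCm38, Cxcl1 (90891241 to 90893115, + strand) and Cxcl2 (90903871 to 90905938, + strand) lie side by side on chromosome 5, where Cxcl10 (92346638 to 92348889, - strand) also lies. On chromosome 11, Ccl2 (82035571 to 82037453, + strand) precedes Ccl7 (82045712 to 82047525, + strand), and Ccl3 (83647844 to 83649355, - strand) precedes Ccl4 (83662584 to 83664683, + strand). Cxcl16 (70453983 to 70459984, - strand) is on the same chromosome. Il1b is on chromosome 2 (129364570 to 129371139, - strand) and Tnf on chromosome 17 (35199381 to 35202007, - strand).

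After filtering, 22744 cells remained, 4819 and 4408 from the HC mice and 3651, 5122 and 4744 from the chow mice. The deposited libraries held between 28722244 and 39624978 UMIs (unique molecular identifiers, 1 per captured transcript), and the median kept cell had 6001. Cells fell into 23 clusters, of which those that met the marker and hormone rules given below were named after the type they resembled. There were 461 macrophage-like cells, led by C1qb, C1qc and Ms4a7, and 194 dendritic-like, 287 ductal-like, 344 stromal-like, 818 endothelial-like, 9794 beta-like, 3471 alpha-like and 2239 delta-like cells. The 4857 cells of unnamed clusters, mostly endocrine, held 3.16% of the UMIs of the 10 genes. Any 2 libraries shared 4 to 14 cell barcodes.

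The macrophage-like cells made up 2.03% of the kept cells and 0.839% of their UMIs, yet carried 1660 of the 3575 UMIs of the 10 genes, or 46.4%. Ductal-like cells carried 16.4%, stromal-like cells 9.48%, beta-like cells 9.43% and dendritic-like cells 9.09%. At least 1 UMI of the set was present in 85.0% of macrophage-like cells at a median depth of 1710 UMIs per cell. By mouse this share was 86.7% and 81.2% in the HC mice and 93.0%, 92.0% and 78.6% in the chow mice. Alpha-like and delta-like cells had 0.547% and 0.402% at median depths of 3961 and 2457 UMIs. Since the clusters were built from the same counts, and all 10 genes were among the variable genes used, levels across cell types are given as a description without a test.

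**Figure D1:**
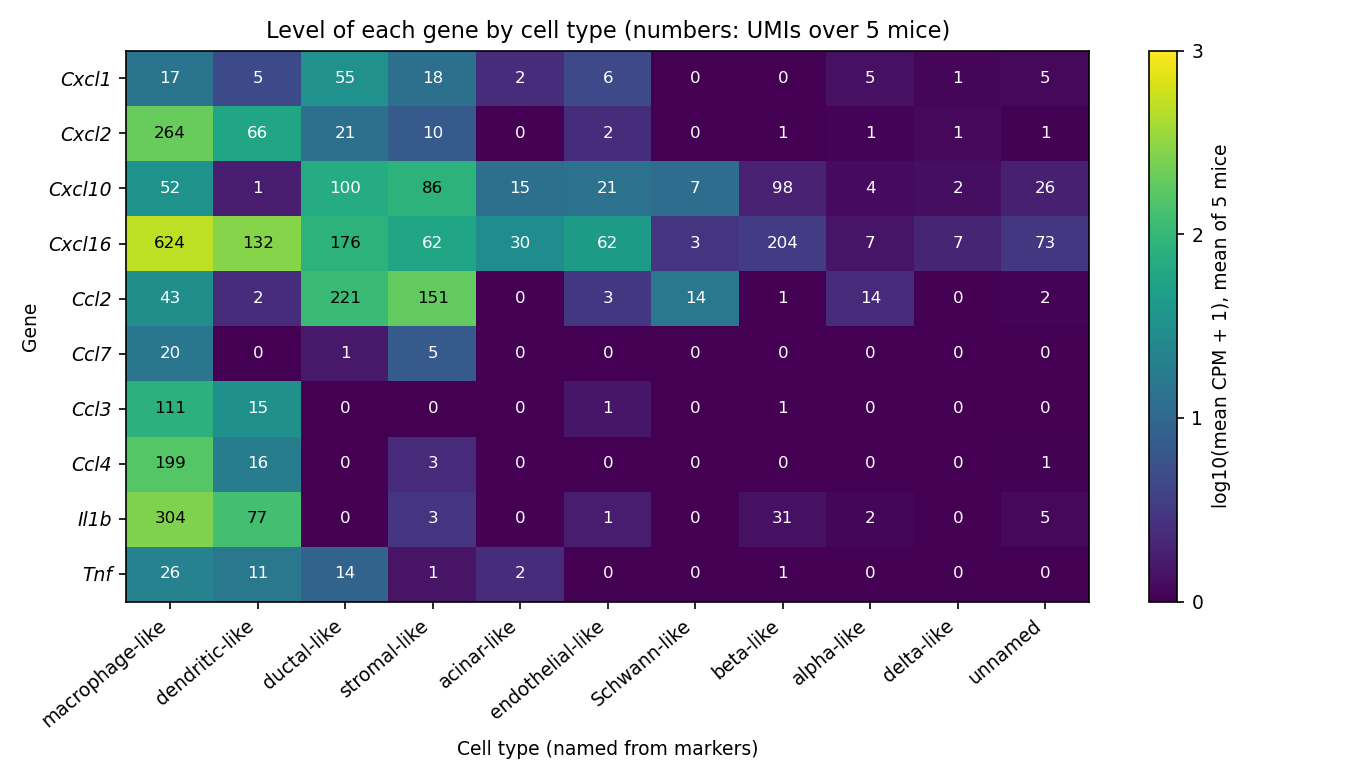
Level of each of the 10 genes (rows) in each cell type (columns); colour is log10 of the mean CPM (UMIs per 1000000 UMIs) over the 5 mice plus 1, and the number in each cell is the UMI count over all mice. Ccl3, Ccl4 and Il1b appear mostly in the macrophage-like and dendritic-like columns, whereas Cxcl1, Ccl2 and Cxcl10 have their larger counts in ductal-like or stromal-like cells.

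The genes differed in which cells held their UMIs. Of the UMIs of each gene in kept cells, macrophage-like cells held 90.9% for Ccl4, 86.7% for Ccl3, 76.9% for Ccl7, 71.9% for Cxcl2, 71.9% for Il1b, 47.3% for Tnf and 45.2% for Cxcl16. They held 14.9% for Cxcl1, 12.6% for Cxcl10 and 9.53% for Ccl2.

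Cxcl2, the murine neutrophil attractant, had 78.6 and 221 CPM (UMIs of the gene per 1000000 UMIs of the same cells) in the macrophage-like cells of the HC mice, against 90.1, 329 and 269 in those of the chow mice. The mean was 149.7 ± 101 in HC mice and 229.5 ± 124 in chow mice (SD, n = 2 and 3), and the diet groups overlapped. HC 1 and chow 1, the FUN libraries, were the low ones. A Cxcl2 UMI was found in 13.3% and 29.7% of macrophage-like cells of the HC mice and in 14.0%, 29.3% and 28.2% of those of the chow mice. In contrast, 1 of 3471 alpha-like and 1 of 2239 delta-like cells had one. Its dendritic-like level was 46.0 and 148 CPM in HC mice and 0, 0 and 101 in chow mice.

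Il1b, which encodes the precursor of IL-1β, had 340.4 and 99.0 CPM in macrophage-like cells of the HC mice, against 456, 199 and 218 in those of the chow mice. The diet groups overlapped, with means of 219.7 ± 171 in HC mice and 291 ± 143 in chow mice (SD, n = 2 and 3), and here the FUN libraries were the high ones. An Il1b UMI was present in 41.8% and 19.5% of macrophage-like cells of the HC mice and in 61.4%, 32.0% and 28.2% of those of the chow mice. The 95% exact Clopper-Pearson intervals of the lowest and highest of these shares, 13.1% to 27.5% in HC 2 and 47.6% to 74.0% in chow 1, did not overlap. Such intervals cover counting error within a library only. Thinning every cell to 1000 UMIs gave 31.8% and 13.9% in the HC mice and 41.0%, 22.7% and 20.9% in the chow mice, the same order of high and low libraries. Il1b was not seen in any of the 287 ductal-like or 2239 delta-like cells, while 30 of 9794 beta-like cells held 31 UMIs.

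Cxcl16, a transmembrane chemokine that binds Cxcr6 and also acts as a scavenger receptor, was found in 851 cells, the most of the set. Macrophage-like cells had 698 and 355 CPM in HC mice, against 546, 596 and 357 in chow mice, with means of 527 ± 243 and 499 ± 126 (SD, n = 2 HC and 3 chow). In these cells the diet groups overlapped. On average over the 5 mice, 67.8% ± 12.1 (SD) of macrophage-like cells had a Cxcl16 UMI. Endothelial-like cells had 42.4 and 56.3 CPM in HC mice and 30.3, 48.9 and 35.5 in chow mice. In dendritic-like cells both HC mice lay below all chow mice, at 169 and 162 CPM against 448, 471 and 173, with means of 165 ± 5.03 and 364 ± 166 (SD, n = 2 HC and 3 chow). These levels rest on 11 and 46 UMIs in HC mice and 26, 13 and 36 in chow mice, and HC 1 and chow 3 lie close together. Dendritic-like cells were too few in some mice for a test, with 18 in HC 1, 19 in chow 1 and 10 in chow 2.

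Ccl3 and Ccl4, which attract monocytes and T cells, were nearly confined to the myeloid clusters. In macrophage-like cells Ccl3 had 21.8 and 102 CPM in HC mice, against 101, 102 and 94.6 in chow mice. HC 1 stood lowest, and the other 4 mice lay close together. Ccl4 had 118 and 157 CPM in HC mice, against 307, 126 and 94.6 in chow mice, with chow 1 highest. Neither gene had a UMI in ductal-like cells, where a count of 0 allows up to 5.46 to 14.8 CPM, depending on the mouse. Ccl3 was detected more often in macrophage-like cells with a Ccl4 UMI, at 34.0%, than in those without, at 12.9%. The order was the same in each of the 5 mice (20.0% against 2.41% and 30% against 23.5% in the HC mice; 47.6% against 13.9%, 35.3% against 15.5% and 35.7% against 8.99% in the chow mice). Median depths were alike, 1787 UMIs in cells with Ccl4 and 1702.5 in cells without. Il1b was present in 49.5% of cells with Ccl4 and 29.1% of cells without it when the mice were pooled, but not in the same order in every mouse. It was 46.7% against 41.0% in HC 1 and 33.3% against 15.3% in HC 2, and in chow mice 85.7% against 47.2%, 29.4% against 32.8% and 57.1% against 23.6%. Between Cxcl2 and Il1b the order of the shares differed among mice: Il1b was present in 53.8% of cells with Cxcl2 against 40% without in HC 1, and in 13.2% against 22.2% in HC 2, while chow mice had 75.0% against 59.2%, 27.3% against 34.0% and 31.0% against 27.0%.

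Tnf, the prototype of its cytokine family, was sparse: the 26 Tnf UMIs in macrophage-like cells came from 26 cells. Its level was 17.5 and 22.8 CPM in HC mice and 37.1, 14.5 and 10.9 in chow mice, which overlapped. Ccl7, a second ligand of Ccr2, had 26 UMIs in all kept cells, 20 of them macrophage-like, at 8.73 and 15.2 CPM in HC mice and 5.30, 0 and 40 in chow mice. For Ccl7 in all kept cells an exact two-sided permutation test gave p = 1.0; with 10 ways of dividing 5 mice into 2 and 3, p cannot go below 0.1.

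Cxcl1, like Cxcl2 a neutrophil attractant, had 55 of its 114 UMIs in ductal-like cells. Its ductal-like level was 30.9 and 25.5 CPM in HC mice, against 29.9, 15.2 and 59.1 in chow mice, which overlapped. Its neighbour Cxcl2 had 21 UMIs in the same cells, against 264 in macrophage-like cells, where Cxcl1 had 17. In macrophage-like cells Cxcl1 stood at 4.36 and 7.61 CPM in HC mice and at 0, 29.1 and 25.5 in chow mice. The 0 of chow 1 allows up to 15.9.

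Cxcl10, the interferon-inducible ligand of Cxcr3, was spread over ductal-like (100 UMIs), beta-like (98), stromal-like (86) and macrophage-like (52) cells but came from few cells. Only 113 cells had a Cxcl10 UMI, and 9 of them held 50% of the 412 UMIs. Of the beta-like UMIs, 83 were in chow 2, and 46 of these in a single cell. Stromal-like cells had 220.2 and 67.2 CPM in HC mice and 57.3, 4.99 and 81.8 in chow mice, and single cells supplied 20 of the 20 UMIs in HC 1, 30 of 32 in HC 2 and 26 of 27 in chow 3. Levels of Cxcl10 in ductal-like cells were 12.4 and 56.4 CPM in HC mice and 29.9, 6.53 and 246 in chow mice, without a pattern by diet.

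**Figure D2:**
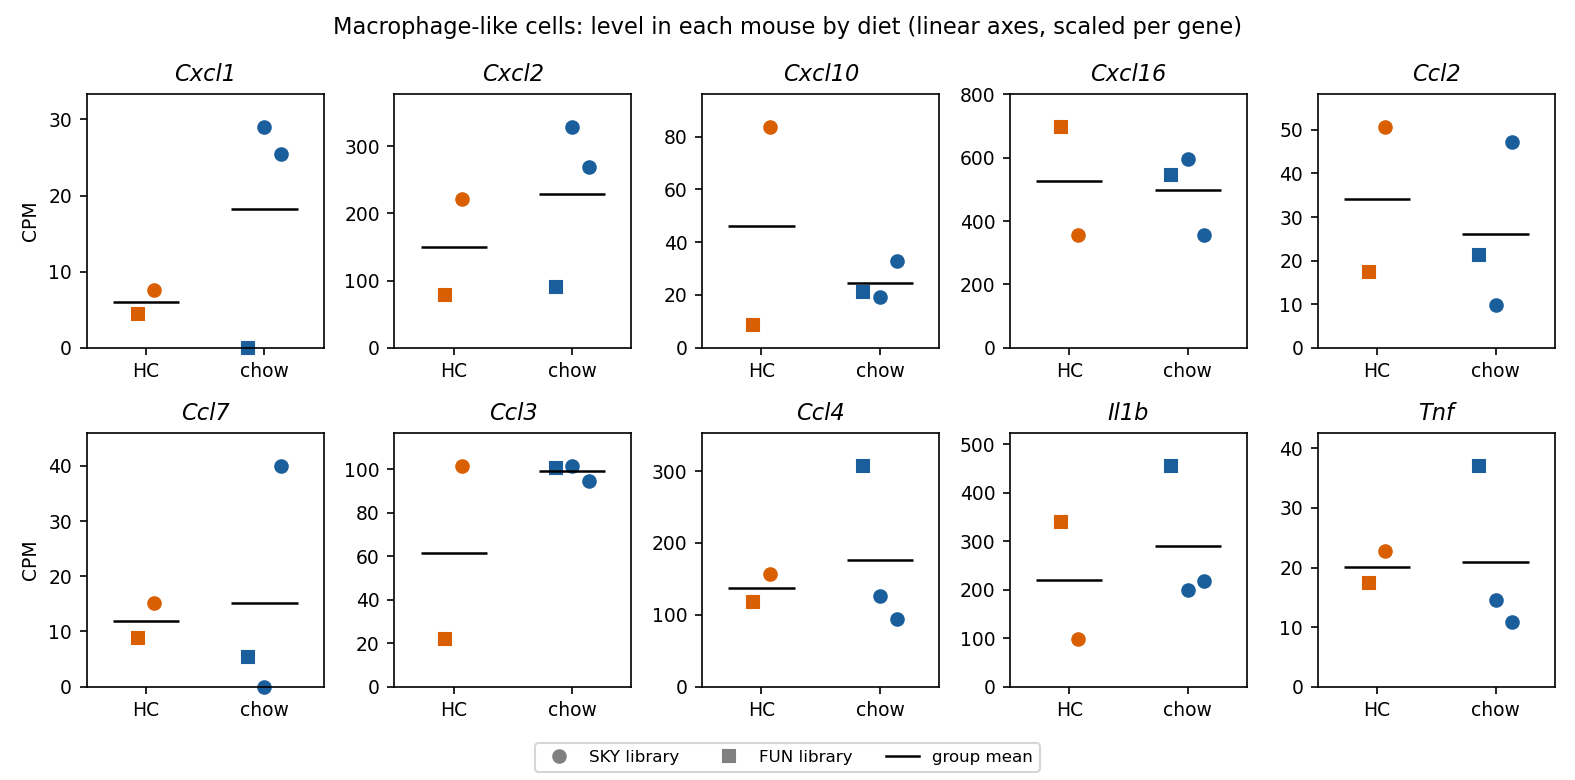
Level of each gene in macrophage-like cells (CPM, linear axes scaled per gene), 1 point per mouse, HC left of chow, with circles for SKY and squares for FUN libraries and a line at the group mean. The HC and chow points overlap for all 10 genes, and for Cxcl2 and Il1b the squares and circles separate in both diets. Those of Cxcl1 also lie apart, but rest on 0 to 7 UMIs per mouse.

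The question the series poses is how the HC diet compares with chow, and it was tested with edgeR's quasi-likelihood test on UMI counts summed per mouse and cell type, with Benjamini-Hochberg adjustment over all genes. In macrophage-like cells none of the 6 genes of the set that passed the count filter was called, beside a background of 0.0749% of the 2669 genes tested (2 genes). None of the 6 had an unadjusted p under 0.05, DESeq2 called none either, and 86 of all genes tested had an unadjusted p under 0.05. The fitted log2 difference of HC over chow was -0.68 for Cxcl2 (SE 0.640, adjusted p = 0.996), -0.60 for Il1b (SE 0.645, adjusted p = 0.996) and -0.65 for Ccl3 (SE 0.468, adjusted p = 0.996). It was -0.43 for Ccl4 (SE 0.523) and -0.08 for Cxcl16 (SE 0.306). The median over the 6 genes was -0.52, against -0.02 over all genes tested. Leaving out HC 2, or taking the diet from its title, turned Il1b to 0.054 and 0.36 and Cxcl16 to 0.31 and 0.44. Without HC 1, Il1b was called at -1.61 (edgeR adjusted p = 0.0423); HC 2 was then the sole HC mouse, and the spread came from the chow mice alone.

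Outside macrophages the diet fits called none of the genes either. In ductal-like cells 4 were tested and the background was 0% of 5736 genes; 1 of the 4, Cxcl16, had an unadjusted p under 0.05. Its levels there were 83.4 and 158 CPM in HC mice and 52.4, 47.9 and 93.5 in chow mice, which overlapped, with a log2 difference of 1.06 (SE 0.291, unadjusted p = 0.00219, edgeR adjusted p = 1.00); with an age term it was called (adjusted p = 0.0349). The log2 difference was 0.84 without HC 2 and 0.34 with the diet from its title (edgeR adjusted p = 0.603 and 0.930). In beta-like cells 1 gene was tested, Cxcl16, beside a background of 0.00852% of 11737 genes. Every HC mouse lay above every chow mouse, at 3.16 and 3.32 CPM against 2.26, 1.67 and 1.64. The log2 difference was 0.75 (SE 0.226, unadjusted p = 0.00497, edgeR adjusted p = 0.756), and it was 0.28 with the diet from the title of HC 2. Cxcl16 in these 2 cell types was singled out after its values were seen. Cxcl1 in ductal-like cells, its highest level among the tested types, had a fitted log2 difference of -0.093 (SE 0.495). A UMI of Cxcl16 was present in 2.10% of beta-like cells at a median of 8107 UMIs, against 0.211% of alpha-like cells and 0.269% of delta-like cells. Thinned to 1000 UMIs per cell, these shares were 0.273%, 0.0506% and 0.112%.

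In stromal-like cells 3 genes were tested (background 0% of 2779 genes), with no unadjusted p under 0.05 among them. The fitted log2 difference of Cxcl10 there was 1.05 (SE 0.843). Stromal-like Ccl2 had 738 and 124 CPM in HC mice against 0, 20.0 and 63.6 in chow mice, and its fitted log2 difference was 3.21 (SE 1.21, edgeR adjusted p = 1.00). Both HC mice lay above the chow mice, but the counts came from few cells: 53 of the 67 UMIs in HC 1 and 34 of the 59 in HC 2 were in a single cell each. Without the highest cell of each mouse the groups still did not overlap, at 163 and 52.9 CPM in HC mice against 0, 5.04 and 21.4 in chow mice. The fitted difference was 4.10 without HC 2 and 3.29 with its title's diet (edgeR adjusted p = 0.993 and 0.919). Endothelial-like cells had 1 gene tested, Cxcl16, with a log2 difference of 0.34 (SE 0.390, background 0.0385%). In alpha-like, delta-like and Schwann-like cells none of the genes passed the count filter (background 0.0676%, 0.0107% and 0%). Whether diet acted differently in macrophage-like and beta-like cells was tested as an interaction with the mouse as a block (background 0.0327%). Cxcl16, the one gene of the set that passed the count filter in both types, differed by -0.82 (SE 0.284, edgeR adjusted p = 1.00). Of the others, 7 had 0 or 1 UMI in beta-like cells, so that the interaction says nothing about them.

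Over all kept cells, Ccl2, the main monocyte attractant, was the gene that differed most between the diets. The HC libraries held 160 and 156 Ccl2 UMIs, the chow libraries 47, 36 and 52. That is 5.64 and 5.42 CPM in HC mice against 1.61, 0.929 and 1.79 in chow mice, with means of 5.53 ± 0.159 and 1.44 ± 0.453 (SD, n = 2 HC and 3 chow). The unfitted log2 of HC over chow was 1.81 in FUN libraries, where it compares HC 1 with chow 1 alone. It was 2.00 in SKY libraries, from HC 2 against chow 2 and chow 3. In HC 1 the highest cells held 75 and 53 of the 160 UMIs. Across all 5 mice the groups did not overlap. The fitted log2 difference was 1.78 (SE 0.251, unadjusted p = 0.000129), but the edgeR adjusted p was 0.267, and none of the 9 genes tested was called (background 0% of 14597 genes). DESeq2 called Ccl2 (adjusted p = 7.61e-05), as did edgeR without the count filter (adjusted p = 0.0125). The share of all genes called in those fits is not given, so the calls have no background beside them. Without HC 1 edgeR gave an adjusted p of 0.0296, with HC 2 as the sole HC mouse and the spread from the chow mice alone. Without HC 2 the log2 difference was 1.73 (edgeR adjusted p = 0.0779), and with that mouse counted as chow, 1.02 (edgeR adjusted p = 0.758). Ccl2 in all kept cells was singled out after its values were seen.

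The share of cells with a Ccl2 UMI did not separate the diets. A Ccl2 UMI was present in 12 and 29 cells of the HC mice and in 10, 16 and 15 cells of the chow mice, or 0.249% and 0.658% of HC cells and 0.274%, 0.312% and 0.316% of chow cells, which overlap. Of the 451 Ccl2 UMIs, 7 cells held 50%, and the highest cell, ductal-like and from HC 1, held 75. Ductal-like cells carried 221 of the UMIs, at 259.6 and 135 CPM in HC mice against 105, 41.4 and 9.84 in chow mice. The fitted log2 difference of HC over chow was 1.9 (SE 1.00, edgeR adjusted p = 1.00), and Ccl2 was called there once a prefix term was added. The log2 difference was 2.50 without HC 2 and 2.11 with its title's diet (edgeR adjusted p = 0.723 and 0.636). The diet groups did not overlap, but without the highest cell of each mouse they did, at 28.6 and 111 in HC mice and 62.8, 13.2 and 0 in chow mice. Over all kept cells the gap became smaller without the highest cell of each mouse, at 3.00 and 4.24 CPM in HC mice against 1.03, 0.594 and 1.31 in chow mice. Without the highest 3 it was 0.776 and 2.95 in HC mice against 0.343, 0.465 and 0.653 in chow mice. The groups still did not overlap, while the difference of the means was 1.38 instead of 4.09 CPM. The shares of source cells differed between libraries too: ductal-like cells were 0.789% and 2.36% of kept cells in HC mice and 1.37%, 1.03% and 0.885% in chow mice, and stromal-like cells were 0.643% and 2.99% in HC mice and 1.31%, 1.09% and 1.62% in chow mice. HC 1 had the lowest shares and HC 2 the highest; their part in the Ccl2 result was not tested.

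**Figure D3:**
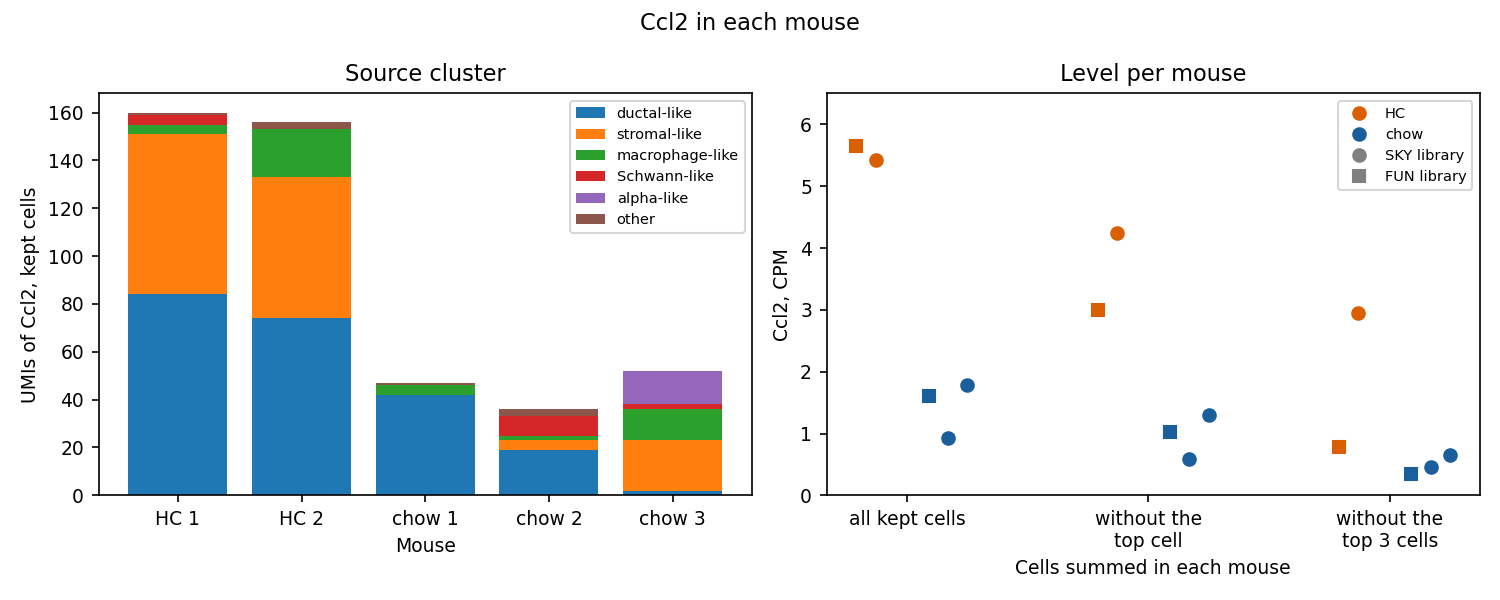
Ccl2 in each mouse. Left, UMIs in kept cells (bars from 0) by source cluster, HC mice left of chow mice; right, CPM over all kept cells and without the 1 or 3 cells of most Ccl2 UMIs per mouse, with circles for SKY and squares for FUN libraries. The HC points lie above the chow points in all 3 settings, and the gap narrows from left to right.

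Cxcl16 over all kept cells also had diet groups without overlap, at 9.91 and 13.7 CPM in HC mice against 7.78, 6.35 and 7.94 in chow mice. The fitted log2 difference was 0.52 (SE 0.194, edgeR adjusted p = 0.844). The log2 difference was 0.18 without HC 2 and -0.066 with the diet from its title, so the direction turned there. For the other 8 genes the diet groups overlapped over all kept cells. The exact permutation test gave p = 0.1, the lowest possible, for Ccl2 and for Cxcl16. The share of all genes without overlap was not counted. Of the 9 fitted differences 8 were above 0, with a median of 0.41 against 0.01 for all genes. Without HC 2, the unfitted log2 of HC 1 over chow 1 was -1.47 for Ccl3, -0.96 for Ccl4 and Tnf, -0.35 for Il1b and -0.06 for Cxcl1. It was 0.04 for Cxcl2 and Cxcl10, 0.35 for Cxcl16, 1.81 for Ccl2 and 2.36 for Ccl7. Sums over all cells move with the share of each cell type. Macrophage-like cells were 2.03% and 2.90% of kept cells in HC mice and 1.56%, 1.46% and 2.17% in chow mice.

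In macrophage-like cells the prefix of the library separated Cxcl2 and Il1b, in opposite directions. With diet in the model, 2 of the 6 genes tested were called between SKY and FUN libraries, beside a background of 0.637% of 2669 genes (17 genes). Cxcl2 was higher in SKY libraries, at 221, 329 and 269 CPM, against 78.6 and 90.1 in FUN libraries. Its means were 273 ± 54.3 in SKY and 84.3 ± 8.18 in FUN libraries (SD, n = 3 and 2), a log2 difference of 1.61 (SE 0.276, edgeR adjusted p = 0.0120). Il1b was lower in SKY libraries, at 99.0, 199 and 218 CPM, against 340.4 and 456 in FUN libraries. Its means were 172 ± 64.0 in SKY and 398 ± 81.7 in FUN libraries, a log2 difference of -1.40 (SE 0.235, edgeR adjusted p = 0.0120). Neither gene's library sets overlapped. In chow 1 a single cell held 26 of the 86 Il1b UMIs. Without the highest cell of each mouse Il1b was at 84.1, 182 and 180 CPM in SKY and 321 and 324 in FUN libraries. The unfitted difference of SKY over FUN was 1.49 for Cxcl2 among the HC mice and 1.73 among the chow mice, and -1.78 and -1.13 for Il1b, all on the log2 scale.

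**Figure D4:**
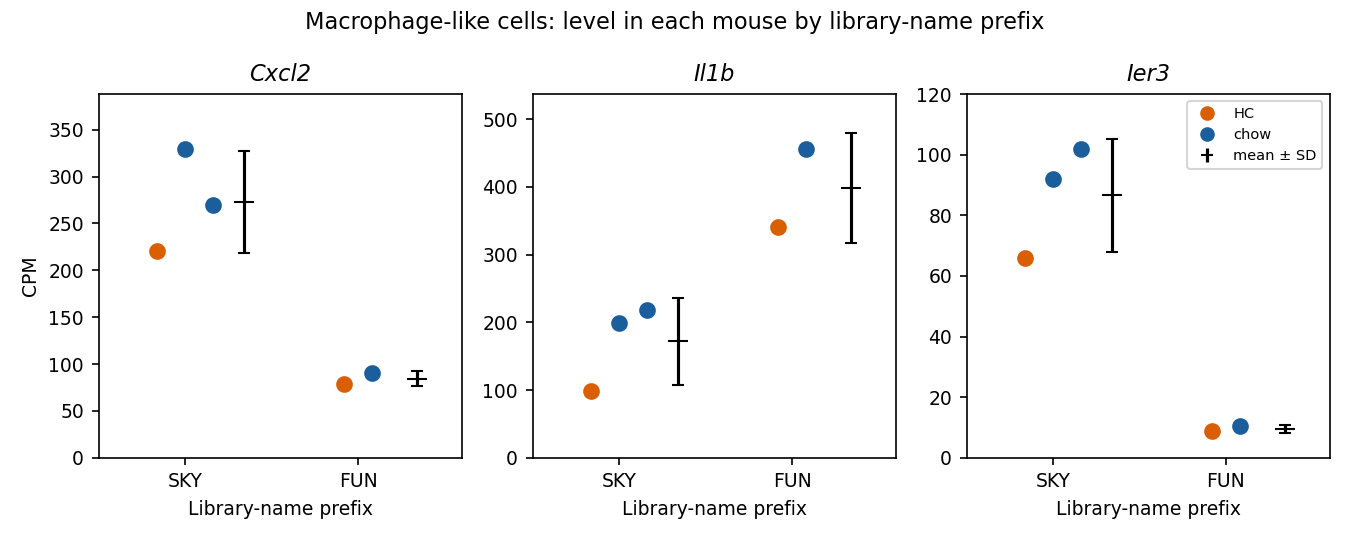
Cxcl2, Il1b and Ier3 in macrophage-like cells (CPM, linear axes from 0), 1 point per mouse coloured by diet, SKY libraries left of FUN libraries, with the mean and SD beside each set. All SKY points lie above the FUN points for Cxcl2 and Ier3 and below them for Il1b.

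Both calls depended on the tool and on single mice. DESeq2 gave 1.65 for Cxcl2 and -1.38 for Il1b, with an adjusted p of 0.949 for both. For Cxcl2 the edgeR adjusted p was 0.0601 without chow 1 and 0.0511 without HC 2, with log2 differences of 1.56 and 1.66; for Il1b it was 0.108 without HC 1 and 0.109 without HC 2, with -1.16 and -1.18. With the diet from the title of HC 2 the adjusted p was 0.354 for both. The other genes tested were not called: Ccl2 at 1.05, Ccl3 at 0.74, Ccl4 at -0.70 and Cxcl16 at -0.55. Cxcl1, too sparse to be tested there, had 7.61, 29.1 and 25.5 CPM in SKY and 4.36 and 0 in FUN libraries. These levels rest on 3, 6 and 7 UMIs in SKY and 1 and 0 in FUN libraries. The 0 of chow 1 allows a level above that of HC 2, so no separation can be read from them.

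Other features of the macrophage-like cells differed with the prefix as well. The summed level of the 18 dendritic cell markers was 10222, 13054 and 9267 CPM in SKY and 16466 and 16381 in FUN libraries, which did not overlap. Most of it was Cst3, which macrophages also express, at 9887, 12700 and 9027 in SKY libraries and 16091 and 15978 in FUN libraries. 8 to 10 of the 18 markers, among them Flt3 and Cd209a, were at 0 in a given library. Of the 7 neutrophil markers 5 or 6 were at 0, S100a9 and Retnlg in every library, with a sum of 17.5 to 43.7. The 26 genes of the response to dissociation summed to 6334, 7171 and 5989 in SKY and 6411 and 6923 in FUN libraries, which overlapped. All 32 macrophage markers were detected in each library, and 7 or 8 of the 11 T and B cell markers were at 0. The part of these features, and of age, in the result was not tested.

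The ductal-like cells differed in marker level between prefixes. Their 24 ductal markers summed to 46926, 43356 and 50401 CPM in SKY libraries (HC 2, chow 2 and chow 3). The sums were 24385 and 36542 in FUN libraries (HC 1 and chow 1), and the sets did not overlap. The part of this difference in the ductal-like results, for prefix or diet, was not tested. In ductal-like cells 1 of the 4 genes tested, Ccl2, was called between prefixes, beside a background of 3.45% of 5736 genes. Its log2 difference was -1.67 (SE 0.265, edgeR adjusted p = 9.26e-06), yet the library sets overlapped, at 135, 41.4 and 9.84 CPM in SKY and 259.6 and 105 in FUN libraries. The edgeR adjusted p was 0.631 without chow 1, 0.897 without HC 1, 0.740 without HC 2 and 0.640 with prefix alone in the model. No gene of the set was called between prefixes in stromal-like (3 tested, background 0%), beta-like (1 tested, 0.988%) or endothelial-like cells (1 tested, 0.750%), and none was tested in alpha-like (0.927%), delta-like (1.03%) and Schwann-like cells (0%). None of those tested had an unadjusted p under 0.05. Over all kept cells none of 9 was called (background 0.438%) and 3 had an unadjusted p under 0.05. Closest were Cxcl10, at 4.45, 2.53 and 3.71 CPM in SKY and 1.38 and 1.34 in FUN libraries (log2 1.62, edgeR adjusted p = 0.0628), and Cxcl2, at 5.14, 1.81 and 3.40 in SKY and 0.882 and 0.857 in FUN libraries (log2 2.22, edgeR adjusted p = 0.0891). DESeq2, and edgeR without the count filter, called these 2. Without the highest cell of each mouse Cxcl10 was at 3.41, 1.34 and 2.82 CPM in SKY and 0.670 and 1.13 in FUN libraries. Without the highest 3 the sets overlapped, at 2.43, 0.672 and 1.27 in SKY and 0.388 and 0.857 in FUN libraries.

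Other genes of the pathway were not called between the diets in macrophage-like cells. None passed the edgeR test among the 6 other chemokines, 2 chemokine receptors, 2 other cytokines, 12 cytokine receptors, 8 NF-κB pathway genes and 7 sensing and inflammasome genes that were tested, nor among the 22 genes of the dissociation response. Closest by unadjusted p were Ccl12, another Ccr2 ligand, at a log2 difference of 1.2 (edgeR unadjusted p = 0.0527), and Cx3cr1, the fractalkine receptor of resident macrophages, at -0.60 (edgeR unadjusted p = 0.0585). Cx3cr1 had 227 and 195 CPM in HC mice against 345, 339 and 193 in chow mice, which overlapped. Median log2 differences of these 7 lists lay between -0.25 and 0.12, against -0.02 over all genes. Ccr2, the receptor of Ccl2 and Ccl7, had 30.5 and 43.1 CPM in HC mice and 42.4, 33.9 and 76.4 in chow mice, which overlapped.

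Between prefixes, 1 of the 8 NF-κB pathway genes tested and none of the genes tested in the other 6 lists was called in macrophage-like cells, beside the background of 0.637%. Ier3, an immediate early target of NF-κB, was higher in SKY libraries, at 66.0, 92.0 and 102 CPM against 8.73 and 10.6 in FUN libraries, a log2 difference of 3.01 (SE 0.528, edgeR adjusted p = 0.0121). Nfkbia, the NF-κB inhibitor, stood at 302, 189 and 262 CPM in SKY and 122 and 143 in FUN libraries, and Cebpb, a transcription factor of inflammatory genes, at 386, 455 and 538 in SKY and 314 and 180 in FUN libraries. Neither set overlapped, and neither gene was called (log2 0.97 and 0.90, edgeR adjusted p = 0.158 and 0.154). Nfkbia and Cebpb are given beside Ier3 for comparison. The share of all genes whose library sets did not overlap was not counted. Of the 8 NF-κB genes tested, 5 had a log2 difference above 0. The median of the 8 was 0.16, against 0.00112 over all genes.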

How the data were processed

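Islet cells of 5 NOD.SCID mice were sequenced with the 10x 3' v3 chemistry, per the labels' protocols. The deposited matrices hold raw UMI counts per gene and barcode; the submitters' processing notes name Cell Ranger 4.0.0 and mm10. No barcode under 500 UMIs was listed. Ensembl rows were given mouse symbols (32158 of 32285). Cells with at least 1000 UMIs, 500 genes and at most 15% mitochondrial UMIs were kept and clustered in scanpy 1.11.5 (2000 variable genes, 30 components, 15 neighbours, Leiden resolution 1). A cluster name needed at least 3 markers of a type among the 10 leading genes, and at least 2 times as many as for the next type. Clusters led by proliferation markers stayed unnamed. So did clusters where the hormone of another type reached 50% of its level in the highest cluster. Scrublet marked 14 cells (0.0615%), which were removed. With so few marked, doublet calling did not work, and doublets may remain among the kept cells. CPM is a gene's summed count per 1000000 summed counts of a mouse and type. Types with at least 20 cells in each mouse were tested in edgeR 4.0.16 (filterByExpr, TMM, robust quasi-likelihood fit, two-sided, adjusted p under 0.05), with the mouse as replicate; DESeq2 1.42.0 was an alternative. Prefix was tested with diet in the model. The fits were tested on simulated data. A count of 0 was given an upper limit of 3 counts.

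The genes and lists were chosen with earlier results of these data known. Log2 differences are given for a gene in the tested type where its mean level was highest, and wherever it was called. Others are said to have been chosen after their values were seen or are given beside them for comparison. Further ones fall outside this rule, among them Cxcl16 in endothelial-like cells and over all kept cells, and uncalled genes between prefixes. From the pathway lists the genes called are named, and, for diet in macrophage-like cells, where none was called, the genes of smallest p over all the lists. Ccr2, Nfkbia and Cebpb were not called and are given beside them for comparison. Promoters are from RefSeq on GRCm38.p6 and gene positions from GENCODE on GRCm38.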

Additional observations from a re-analysis of the deposited data

How the results depend on the processing

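Of 246 alternative counts of called genes, 222 gave a count within 1.5 times the reported one. The share of all genes called in each alternative fit is not given. Calls under alternatives, here and above, therefore have no background beside them. The exceptions for HC against chow were 1 call with an age term in macrophage-like cells (leaving out a mouse gave 0 to 1), 1 in ductal-like cells with a prefix term (Ccl2) and 1 with an age term (Cxcl16), and, over all kept cells, 1 with DESeq2 and 1 with every gene of at least 1 count (leaving out a mouse gave 0 to 2). For SKY against FUN in macrophage-like cells, where 2 were called, DESeq2 and the diet from the title gave 0, cells under 20% insulin UMIs gave 1 and prefix alone gave 1 (leaving out a mouse gave 1 to 2). In ductal-like cells the title's diet and prefix alone gave 0 (leaving out a mouse gave 0 to 2). Over all kept cells DESeq2 and every gene gave 2, the stricter cell filter and prefix alone gave 1 (leaving out a mouse gave 0 to 1). The interaction gave 0 to 1 when a mouse was left out; the 1 was Cxcl10, without chow 3, and since most of these genes have 0 or 1 UMI in beta-like cells the count is no sign of stability.

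Of 210 alternative log2 differences of 14 values, 178 kept direction and call, 15 lost the call, 6 gained one and 11 turned sign. The turned ones were HC over chow differences, none of them called. They were Cxcl1 in ductal-like cells (-0.52 to 0.39 with a mouse left out, above 0 without chow 3 or HC 2; 0.54 with the title's diet) and, in macrophage-like cells, Cxcl2 (0.33 with an age term), Ccl4 (-0.74 to 0.26, above 0 without chow 1), Cxcl16 (-0.56 to 0.31, above 0 without chow 1, chow 2 or HC 2; 0.44 with the title's diet) and Il1b (-1.61 to 0.054, above 0 without HC 2; 0.36 with the title's diet). Il1b was called at -1.60 with an age term. The cause was not tested. No paired analysis was possible because replicate numbers were given in accession order and do not pair the mice. The stricter cell filter gave no value in macrophage-like, endothelial-like, stromal-like and Schwann-like cells, where a mouse fell under 20 cells, resolution 0.5 left alpha-like cells unnamed, and the insulin limit left too few Schwann-like cells. The interaction was not run with DESeq2 or with prefix or age terms. The cells and UMIs per gene and mouse limit the precision of all values.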

Other observations

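Across 40 sums (8 cell types by 5 mice) the genes whose levels followed each chemokine or cytokine most closely were looked up among 14429 genes with at least 50 UMIs, by Pearson's r of log2(CPM + 1). The sums share libraries and cell types, so r is a description. Ccl4 was followed most closely by Tnip3 (r = 0.998), Cd86 (0.995) and Cd53 (0.994), Ccl3 by Itgam (0.989), and Il1b by Ptafr (0.987) and Gpr34 (0.986). Cxcl2 was followed by Tnf (0.910) and Ncf4 (0.902), and Cxcl16 by Itgb5 (0.913), Icam1 (0.909) and Grn (0.908). For the genes of non-myeloid cells the closest r was lower, 0.795 for Cxcl1 (Tmem173), 0.840 for Cxcl10 (Fblim1) and 0.747 for Ccl2 (Rab32). Ccl7 had too few UMIs.

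Outside macrophages, genes of the pathway lists were also called between prefixes by edgeR's quasi-likelihood test. In ductal-like cells, where 3.45% of all genes were called, 1 of 8 cytokine receptors was called, Il1r1, the signalling receptor of IL-1β, which was lower in SKY than in FUN libraries (log2 -1.30, adjusted p = 0.0305). 2 of 19 NF-κB pathway genes were called there, the adhesion molecule Vcam1 (-1.20, adjusted p = 0.0064) and Zfp36, which destabilises cytokine mRNAs (1.32, adjusted p = 0.0122), and 1 of 21 dissociation genes, Hspb1 (1.21). The summed ductal markers of the ductal-like cells differed with the prefix too, as given above. Their part in these ductal-like calls was not tested. In endothelial-like cells (background 0.750%) 1 of 3 chemokine receptors was called, Ackr1, a chemokine-scavenging receptor of venules. It had 58.9, 28.0 and 35.5 CPM in SKY libraries (HC 2, chow 2 and chow 3) and no UMI in FUN libraries (adjusted p = 0.0169). Of 23 dissociation genes, Egr1 was called there (-0.83).

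In beta-like cells (background 0.988%) 1 of 21 NF-κB pathway genes was called between prefixes, Cebpd (0.82), and 3 of 23 dissociation genes, Btg2 (-0.52), Ier2 (-0.65) and Egr1 (-0.57). Alpha-like cells (background 0.927%) had 2 of 24 dissociation genes called, Btg2 (-0.49) and Ier2 (-0.51), and delta-like cells (background 1.03%) 1 of 20, Hspb1, which was higher in SKY libraries. Over all kept cells (background 0.438%) Cebpd (0.90) and Btg2 (-0.47) were called, each 1 of 26 genes tested in its list. Between diets, 1 of 24 dissociation genes was called in alpha-like cells (background 0.0676%), Gadd45g at -0.95 (adjusted p = 0.0022), and 1 of 20 in delta-like cells (background 0.0107%), Hspa1a at -0.99 (adjusted p = 0.0389).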
